A study of Mus musculus with 3 samples.

Results

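Chemokine ligand genes encode small secreted proteins that attract cells carrying matching receptors. Their mRNA levels were compared in 3 mouse colon adenocarcinoma lines: the parental Colon26 and its derivatives LuM1 and NM11. Members were the genes whose symbol starts with *Ccl*, *Cxcl*, *Cx3cl* or *Xcl* and ends in a number with at most 1 letter, named through the RefSeq accession of a probe. The arrays held 44 such probes for 35 ligand genes, among 22911 genes named in the same way. The gene table listed 40 symbols of this form, and *Ccl21b*, *Ccl21c*, *Ccl21d*, *Ccl27b* and *Cxcl11* had no named probe. Each ligand probe was a single spot on each array, and none of these spots was marked as an outlier or as saturated.

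Chemokines are grouped by the spacing of cysteines near the start of the protein into CXC, CC, CX3C and C families, and they act through receptors that couple to G proteins. CXC ligands with an ELR motif (glutamate, leucine, arginine) bind CXCR2 and draw neutrophils, whereas CXC ligands of CXCR3 draw activated T cells and natural killer cells. CC ligands of CCR2 draw monocytes. Tumor cells of many kinds produce such ligands, and many of the genes are induced by NF-kappa B or interferon signalling.

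LuM1 is the rapidly metastatic subline, and Colon26 and NM11 are slowly metastatic. All 3 lines are labelled as female cells of the BALB/c strain, and no treatment distinguished them. They were kept in RPMI1640 with fetal bovine serum and antibiotics and grown for 3 days, after which 0.1 µg of each line's RNA was labelled with Cy3 and hybridized to 1 array per line. With 1 array per line there was no replicate check and no test, and each value describes 1 culture of 1 line.

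The signals given are background-corrected spot brightnesses, scaled so that the 75th percentile of each array became 585.1, and the errors are those of the scanner software, which describe technical error only. Whether a probe is well above background is a call of the scanner software, made for 49.9% to 53.8% of all probes on an array, and a gene is called detected only where it is met. A probe not well above background has only a bound. In that case the ratio uses whichever is larger, the probe's own signal or the array's lowest signal well above background (26.4 in Colon26, 20.1 in LuM1, 19.6 in NM11), and the text says "at least". A gene with several probes is represented by the brightest one. A difference is counted from 2-fold, which is 1 on the log2 scale. Apart from a sum over leukocyte markers, signals of different probes are not set against each other. The ratios of LuM1 and of NM11 over Colon26 rest on the same Colon26 array.

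The labelled cell type was set against its markers. Of 7 epithelial and colon markers, *Krt8*, *Krt20* and *Cdx2* were well above background on all 3 arrays, *Epcam* on the LuM1 array alone (28.0 ± 5.18), and *Cdh1*, *Krt18* and *Vil1* on none. The 4 mesenchymal markers were well above background on all arrays, with *Vim* between 80065 and 102137. The probe of the collagen gene *Col1a2* gave 59896 in Colon26 cells and 85275 in NM11 cells, but 49.6 in LuM1 cells. The cells thus carried an adenocarcinoma label with several defining epithelial markers not well above background. Of 7 leukocyte markers, *Ptprc*, which encodes the pan-leukocyte protein CD45, and the macrophage marker *Adgre1* were not well above background on any array. *Cd68*, a lysosomal protein gene abundant in macrophages, gave 172 in Colon26 cells, 5251 in LuM1 cells and 299 in NM11 cells. The summed signal of the leukocyte list was 6537 in Colon26 cells, 13334 in LuM1 cells and 5808 in NM11 cells. Most of it came from *Itgam* (5027, 6818 and 4251 in the same order) and, in LuM1, *Cd68*, so it does not describe the list as a whole. A second *Itgam* probe gave 63.4, 17.9 and 31.0, the LuM1 value not well above background. The part of leukocyte genes in the results below was not tested.

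Both sublines had more ligand genes well above background than the parental line. The count was 7 of 35 in Colon26 cells, 16 in LuM1 cells and 16 in NM11 cells, while over all named genes the share lay between 56.9% (Colon26) and 59.9% (LuM1). Of the ligands, 6 were well above background in all lines (*Cxcl1*, *Cxcl10*, *Ccl5*, *Ccl9*, *Ccl25* and *Cx3cl1*), which is 17.1%, against 53.5% of all named genes. Another 8 were so in both sublines and not in Colon26, which is 22.9% of the ligands and compares with 2.63% of all named genes. *Cxcl3* and *Ccl27a* were so in LuM1 alone (5.71%, against 3.14% of all named genes). *Ccl20* and *Ccl4* were so in NM11 alone (5.71%, against 2.07%), and *Cxcl13* in Colon26 alone (2.86%, against 1.80%). The remaining 16 ligand genes (45.7%, against 35.3% of all named genes) were not well above background on any array.

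**Figure D1:**
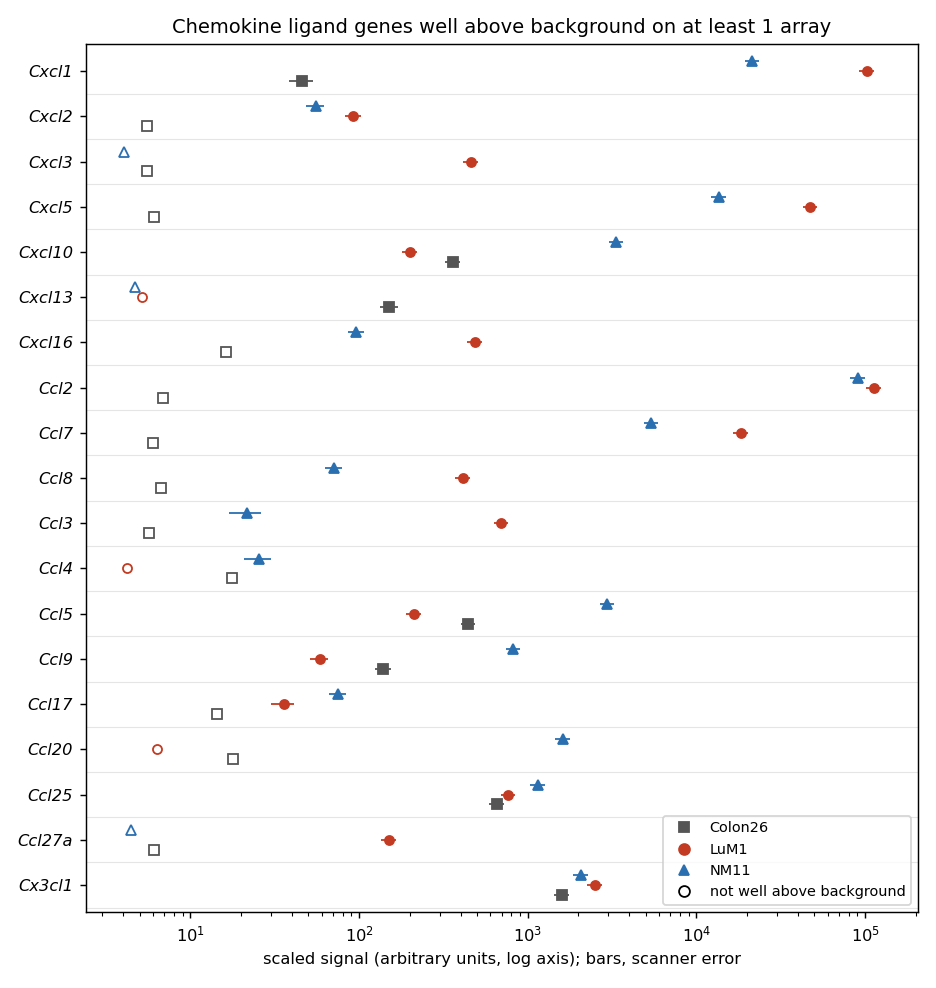
Scaled signal (arbitrary units, log axis) of the 19 ligand genes detected well above background on 1 array or more, with squares for Colon26, circles for LuM1 and triangles for NM11. Open symbols are not well above background and bars are the scanner error. *Ccl2*, *Cxcl1* and *Cxcl5* lie far to the right in both sublines, and *Cxcl10*, *Ccl5*, *Ccl9* and *Ccl20* are highest in NM11.

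Compared with Colon26, LuM1 cells had 10 ligand genes from 2-fold up and 3 from 2-fold down, of 17 with a ratio or a bound. Over all genes with a value, 13.1% were at least 2-fold higher and 11.8% at least 2-fold lower. Only 6 of these ligand ratios were measured on both arrays, and 11 were bounds. Scaled by the factors of the deposited processed table, the split was 11 higher and 1 lower, and 21.2% of all genes were then higher.

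NM11 cells had 12 ligand genes from 2-fold up against Colon26 and 1 from 2-fold down, of 15 with a value. Over all genes, 8.34% were at least 2-fold higher and 7.89% lower. The median log2 ratio was 2.65 over the 6 ligands measured on both arrays and -0.02 over all genes measured on both. With dim probes unfiltered the ligand median, then taken over all 35 ligands, was 0.53. For LuM1 over Colon26 the corresponding medians were -0.31 over 6 ligands and -0.13 over all genes. Medians of measured ratios leave out the bounds. Of the 10 ligands higher in LuM1 only 1 was measured on both arrays, against 4 of the 12 higher in NM11. With bounds taken at their limit, the ligand medians were 2.50 for LuM1 and 2.56 for NM11 over Colon26. Those over all genes were then -0.10 and -0.01.

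Between the sublines, LuM1 exceeded NM11 from 2-fold in 8 ligand genes and lay below it in 5, of 18 with a value. Over all genes, 11.1% were higher and 8.50% lower. The sublines thus differed in which ligands were high, and the members on each side are described by family below.

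**Figure D2:**
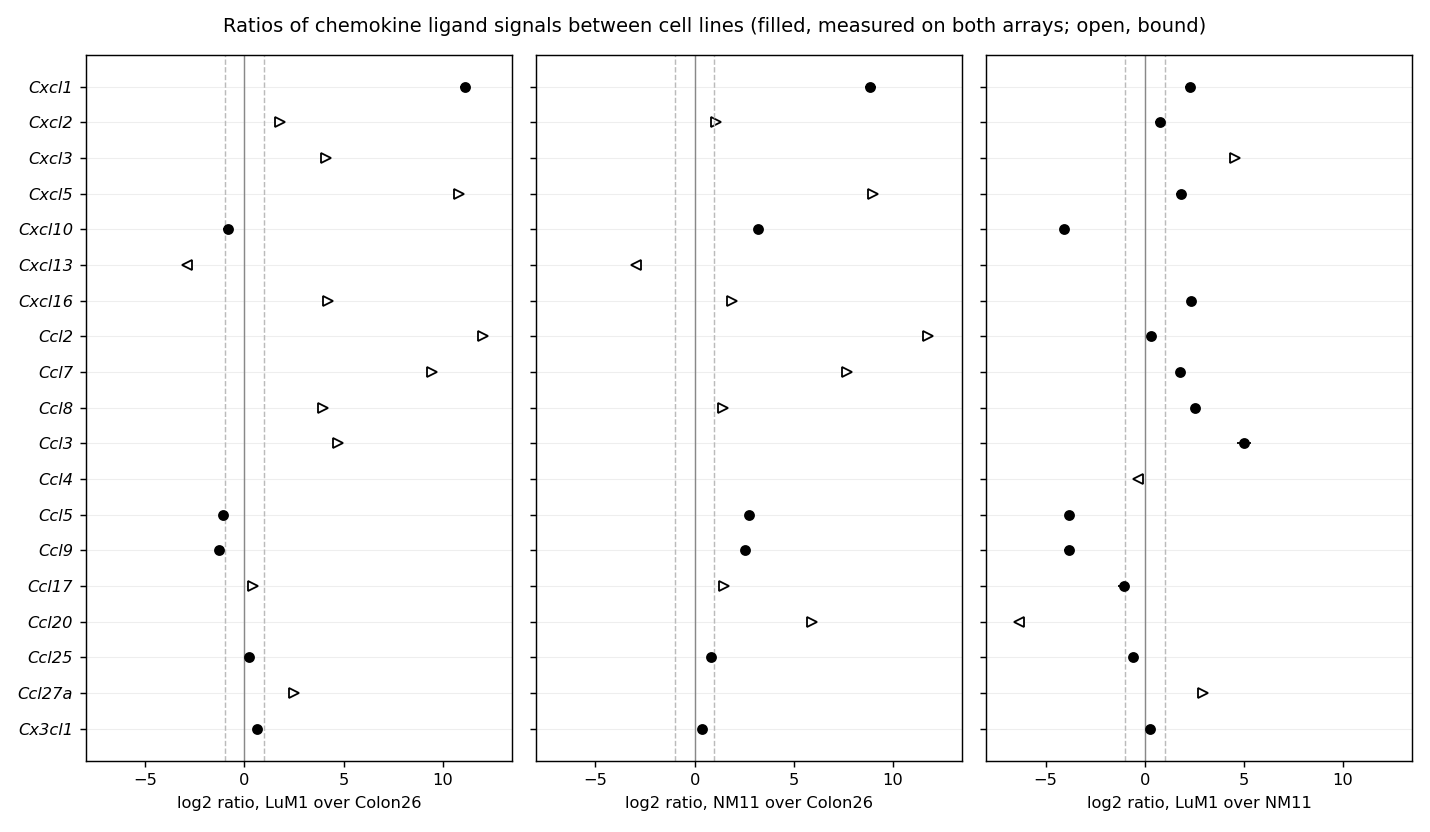
Log2 ratios of the 19 ligand genes for LuM1 over Colon26, NM11 over Colon26 and LuM1 over NM11. Filled circles were measured on both arrays with the scanner error as bars, mostly hidden by the symbol, open triangles are bounds and point to the side on which the true ratio lies, and dashed lines mark 2-fold. In the right panel *Cxcl10*, *Ccl5* and *Ccl9* lie near -4 and *Ccl20* beyond -6, opposite to *Ccl3* near 5.

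The ELR CXC ligands of CXCR2 were higher in both sublines than in Colon26 where they were detected. *Cxcl1*, a neutrophil attractant, gave 45.9 ± 7.47 in Colon26 cells, 102407 ± 10241 in LuM1 cells and 21436 ± 2144 in NM11 cells. The Colon26 signal is dim, and 6.96% of the spots around it were well above background on that array alone, against 1.89% over the array. LuM1 exceeded Colon26 by 2233-fold, or 11.12 on the log2 scale with a scanner error of 0.28. This was the highest of the 12397 ratios measured on both of these arrays. NM11 exceeded Colon26 by 467-fold, and its log2 ratio of 8.87 ranked 2 from the highest among 12471. With normexp these log2 ratios were 9.73 and 7.47. LuM1 exceeded NM11 by 4.78-fold.

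*Cxcl5*, which also acts on neutrophils through CXCR2, was not well above background in Colon26 cells (6.09 ± 6.11) and gave 47428 ± 4743 in LuM1 cells and 13581 ± 1358 in NM11 cells. Over Colon26 the bounds were at least 1796-fold for LuM1 and at least 514-fold for NM11, and LuM1 was 3.49-fold above NM11. The order of the lines was therefore the same as for *Cxcl1*. *Cxcl3* was well above background in LuM1 cells alone, with 460.1 ± 46.2 against 5.51 ± 5.53 in Colon26 and 4.02 ± 4.04 in NM11 cells. LuM1 was at least 17.4-fold above Colon26 and at least 23.5-fold above NM11.

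*Cxcl2* was detected in both sublines at signals nearer to background, with 92.6 ± 10.2 in LuM1 and 55.2 ± 6.85 in NM11 cells against 5.51 ± 5.53 in Colon26 cells. Its bounds were at least 3.51-fold for LuM1 and at least 2.09-fold for NM11 over Colon26, and the sublines differed by 1.68-fold. The log2 bound for NM11 was 1.06, and it fell under 1 with no scaling (0.99), with scaling to *Hprt* (0.58) and with normexp background correction (0.71). The bound for LuM1 was 0.96 with normexp. The log2 ratio of LuM1 over NM11, 0.75, was 1.34 after scaling to *Hprt*, 1.16 in the deposited processed values and 0.25 with normexp. *Cxcl15*, a ligand described in the lung, was not well above background on any array.

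Sequence upstream of 6 ligand genes is shown, namely those detected in at least 1 line whose upstream window held a kappa B motif, the binding motif of NF-kappa B. *Cxcl1*, *Cxcl2* and *Cxcl3* come from one gene cluster and had their highest signal in LuM1, and *Cxcl10*, *Ccl9* and *Ccl20* had theirs in NM11. Each is the 250 bases before the start of the gene, 5′ to 3′ on its own strand, from RefSeq with the build GRCm38.p6. Capitals mark matches to the kappa B motif on either strand, searched as GGG, any 2 bases, TT, any base and CC. The windows lie at chr5:90890995-90891244 (plus strand) for *Cxcl1*, chr5:90903649-90903898 (plus strand) for *Cxcl2*, chr5:90785851-90786100 (plus strand) for *Cxcl3*, chr5:92348890-92349139 (minus strand) for *Cxcl10*, chr11:83578637-83578886 (minus strand) for *Ccl9* and chr1:83116516-83116765 (plus strand) for *Ccl20*.
*Cxcl1*: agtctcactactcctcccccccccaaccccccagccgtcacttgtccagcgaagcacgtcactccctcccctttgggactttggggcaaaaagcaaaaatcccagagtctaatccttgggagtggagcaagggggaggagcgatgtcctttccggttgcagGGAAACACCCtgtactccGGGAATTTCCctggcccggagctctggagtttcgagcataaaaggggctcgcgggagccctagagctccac
*Cxcl2*: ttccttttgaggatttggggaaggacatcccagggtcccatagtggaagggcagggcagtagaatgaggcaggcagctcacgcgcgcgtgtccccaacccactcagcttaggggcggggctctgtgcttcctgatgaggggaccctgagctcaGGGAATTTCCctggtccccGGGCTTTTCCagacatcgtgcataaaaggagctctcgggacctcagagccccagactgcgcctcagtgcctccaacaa
*Cxcl3*: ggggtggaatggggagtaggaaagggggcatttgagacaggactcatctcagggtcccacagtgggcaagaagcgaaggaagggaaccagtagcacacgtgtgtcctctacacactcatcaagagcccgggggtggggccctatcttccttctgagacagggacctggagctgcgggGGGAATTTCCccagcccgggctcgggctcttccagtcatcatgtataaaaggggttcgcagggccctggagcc
*Cxcl10*: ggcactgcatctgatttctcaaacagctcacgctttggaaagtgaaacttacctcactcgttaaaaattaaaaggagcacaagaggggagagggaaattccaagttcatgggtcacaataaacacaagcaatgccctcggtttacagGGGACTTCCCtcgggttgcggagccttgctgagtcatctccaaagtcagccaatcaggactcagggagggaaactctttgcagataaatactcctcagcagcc
*Ccl9*: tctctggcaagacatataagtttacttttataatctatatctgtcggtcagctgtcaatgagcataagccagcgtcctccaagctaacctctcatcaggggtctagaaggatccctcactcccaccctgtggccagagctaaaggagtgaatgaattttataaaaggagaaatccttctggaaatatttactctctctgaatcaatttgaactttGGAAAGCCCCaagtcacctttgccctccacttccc
*Ccl20*: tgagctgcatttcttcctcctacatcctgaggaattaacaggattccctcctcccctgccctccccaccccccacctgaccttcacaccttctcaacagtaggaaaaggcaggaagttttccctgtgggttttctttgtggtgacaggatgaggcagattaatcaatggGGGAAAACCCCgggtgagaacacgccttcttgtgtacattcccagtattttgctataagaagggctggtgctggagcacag

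Promoter windows were given for 25 of the 35 ligand genes, in 28 windows, and not for *Ccl2*, *Ccl4*, *Ccl5*, *Ccl7*, *Ccl11*, *Ccl24*, *Ccl26*, *Cxcl5*, *Cxcl16* and *Cxcl17*. The kappa B motif matched in 8 of these windows, 1 for each of *Cxcl1*, *Cxcl2*, *Cxcl3*, *Cxcl9*, *Cxcl10*, *Ccl9*, *Ccl19* and *Ccl20*, and in 4.11% of all 32851 windows of the same length. The same 10 letters, GGGAATTTCC, stood 71 bases before the start of *Cxcl1*, 97 before that of *Cxcl2* and 73 before that of *Cxcl3*. *Cxcl2* held another match 78 bases before the start. *Cxcl1* held another on the opposite strand 89 bases before the start. The capitals of *Ccl20* cover a pair of overlapping matches on the opposite strand, 81 and 80 bases before the start. *Ccl9* held its match on the opposite strand, 35 bases before the start, and *Cxcl10* on its own strand, 103 bases before. Of the 8 genes, *Cxcl9* and *Ccl19* were not well above background on any array. Other motifs searched on both strands were TGANTCA for AP-1, found in 6.75% of all windows and in those of *Ccl9*, *Ccl27a* and *Cxcl10*, and GAAA, any 2 bases and GAAA for interferon response elements, found in 2.98% of all windows and in those of *Ccl19*, *Cxcl10* and *Cxcl14*. No 2 of these 3 motifs overlapped in the printed windows. A match describes the letters and is not shown to be a site in use.

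*Cxcl10*, the CXCR3 ligand best known as an interferon target, was highest in NM11 cells. Its signal was 362 ± 36.7 in Colon26 cells, 201 ± 20.6 in LuM1 cells and 3355 ± 336 in NM11 cells. NM11 was 9.27-fold higher than Colon26, with a log2 ratio of 3.21 and an error of 0.21, and 16.7-fold higher than LuM1. LuM1 lay 1.80-fold below Colon26, which is within 2-fold. *Cxcl9*, the other CXCR3 ligand with a probe, was not well above background on any array.

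Among the other CXC ligands, *Cxcl16* encodes a membrane-bound ligand of CXCR6 that proteases can release. Its signal was 486 ± 48.8 in LuM1 cells and 96.5 ± 10.5 in NM11 cells, and 16.3 ± 6.01, which did not pass the well above background call, in Colon26 cells. The bounds over Colon26 were at least 18.4-fold for LuM1 and at least 3.66-fold for NM11, and LuM1 was 5.03-fold above NM11. A second probe of the same transcript gave 9.43, 517 and 93.7 in Colon26, LuM1 and NM11 cells. Both probes thus put LuM1 highest and Colon26 lowest.

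*Cxcl13*, a B cell attractant, was the only ligand well above background in Colon26 alone. It gave 152 ± 17.7 there, 5.14 ± 5.16 in LuM1 cells and 4.70 ± 4.72 in NM11 cells, so that Colon26 was at least 7.53-fold above LuM1 and at least 7.74-fold above NM11. Its spot lay in a part of the Colon26 array where 10.6% of the surrounding spots were well above background on that array alone, against 1.89% over the whole array. Without such clustered spots no ligand remained at least 2-fold lower in NM11 than in Colon26 cells. *Cxcl12*, *Cxcl14* and *Cxcl17* were not well above background on any array. *Cxcl12* is the ligand of CXCR4 and of the scavenger ACKR3.

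Of the CCR2 ligands and their relative *Ccl8*, 3 were detected in both sublines and none in Colon26. *Ccl2*, the main attractant of monocytes, gave 6.87 ± 5.46 in Colon26 cells, 112391 ± 11239 in LuM1 cells and 90782 ± 9078 in NM11 cells. The bounds over Colon26 were at least 4256-fold for LuM1 and at least 3438-fold for NM11. LuM1 was 1.24-fold above NM11, a log2 ratio of 0.31 with an error of 0.20. It was 0.90 after scaling to *Hprt*, 0.72 in the deposited processed values and 0.70 with quantile normalization. With normexp the log2 bounds over Colon26, 12.06 for LuM1 and 11.75 for NM11, were 10.53 and 10.17.

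*Ccl7*, another monocyte attractant, gave 6.0 ± 6.02, 18394 ± 1839 and 5407 ± 541 in Colon26, LuM1 and NM11 cells. The bounds over Colon26 were at least 697-fold for LuM1 and at least 205-fold for NM11, and LuM1 was 3.40-fold above NM11. *Ccl8* gave 6.73 ± 6.75, 414 ± 41.7 and 71.2 ± 8.57. Its bounds over Colon26 were at least 15.7-fold for LuM1 and at least 2.70-fold for NM11, and LuM1 was 5.81-fold above NM11. The bound for *Ccl8* in NM11, 1.43 on the log2 scale, was 0.94 after scaling to *Hprt* and 0.73 with normexp. *Ccl12*, the fourth gene of this group, was not well above background on any array.

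The inflammatory CC ligands *Ccl3*, *Ccl4*, *Ccl5*, *Ccl6* and *Ccl9*, which attract leukocytes such as monocytes, went different ways. *Ccl5* (RANTES) gave 445 ± 44.8 in Colon26 cells, 212 ± 21.6 in LuM1 cells and 2961 ± 296 in NM11 cells. *Ccl9* gave 139 ± 15.1, 58.3 ± 7.36 and 823 ± 82.4 in the same order. For both genes NM11 was highest and LuM1 lowest, as for *Cxcl10*. NM11 exceeded Colon26 by 6.66-fold for *Ccl5* and 5.90-fold for *Ccl9*. NM11 exceeded LuM1 by 14.0-fold for *Ccl5* and 14.1-fold for *Ccl9*. Among the 12851 genes measured on both sublines' arrays, the log2 ratios of LuM1 over NM11 of *Cxcl10*, *Ccl9* and *Ccl5* ranked 35, 45 and 46 from the lowest.

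LuM1 was below Colon26 by a log2 ratio of -1.07 for *Ccl5* and -1.26 for *Ccl9*, with errors of 0.21 and 0.24. Both calls are close to 2-fold. That of *Ccl5* was -0.96 with no scaling, -0.97 after scaling to *Hprt*, -0.89 with normexp and -0.62 in the authors' processed values. That of *Ccl9* was -0.74 with normexp and -0.81 in the authors' values.

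*Ccl3* (MIP-1 alpha) showed the opposite order of the sublines. Its signal was 5.67 ± 5.69 in Colon26 cells, 699 ± 70.0 in LuM1 cells and 21.6 ± 4.66 in NM11 cells, the last just above the lowest signal counted as well above background. LuM1 was at least 26.5-fold above Colon26 and 32.4-fold above NM11, a log2 ratio of 5.02 with an error of 0.34. With normexp the log2 ratio over NM11 was 3.03 and the bound over Colon26, 4.73, was 3.25. Of the spots around this probe, 9.91% were well above background on the LuM1 array alone. *Ccl4* (MIP-1 beta) was well above background in NM11 cells alone, at 25.4 ± 4.77, and it was at least 1.26-fold above LuM1. A second *Ccl4* probe was not well above background on any array, and neither was the probe of *Ccl6*.

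*Ccl20*, the ligand of CCR6 on T helper 17 cells and dendritic cells, was well above background in NM11 cells alone. It gave 17.9 ± 5.72 in Colon26 cells, 6.37 ± 4.23 in LuM1 cells and 1620.1 ± 162 in NM11 cells. NM11 was at least 61.3-fold above Colon26 and at least 80.5-fold above LuM1. *Ccl17*, a CCR4 ligand that attracts T helper 2 and regulatory T cells, gave 14.4 ± 5.70, 35.8 ± 5.58 and 74.9 ± 8.52 in Colon26, LuM1 and NM11 cells. Its bound over Colon26 was at least 2.84-fold for NM11 and at least 1.36-fold for LuM1, and NM11 was 2.09-fold above LuM1. The *Ccl17* calls near 2-fold depended on the processing. The log2 ratio of LuM1 over NM11 was -1.07 and moved to between -0.88 and -0.48 with no scaling, normexp, *Hprt* or the authors' values, and the bound of NM11 over Colon26 was 0.83 with normexp.

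*Ccl25*, the thymus and small intestine ligand of CCR9, and *Cx3cl1* (fractalkine), a membrane-bound ligand of CX3CR1, differed by less than 2-fold in every pair of lines. *Ccl25* gave 655 ± 65.8 in Colon26 cells, 768 ± 76.9 in LuM1 cells and 1153 ± 115 in NM11 cells. Its largest ratio was 1.76-fold, for NM11 over Colon26. Its other probes gave 83.9, 91.4 and 159 for the same transcript, and 16.6, 29.5 and 47.3 for a noncoding transcript, each also highest in NM11. *Cx3cl1* gave 1599.6 ± 160.1, 2495 ± 249.5 and 2068 ± 207, with a largest ratio of 1.56-fold for LuM1 over Colon26. That log2 ratio of 0.64 was 1.09 in the authors' values, and the ratio of NM11 over Colon26, 0.37, turned to -0.12 after scaling to *Hprt*.

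*Ccl27a*, a skin ligand of CCR10, gave 150 ± 15.7 in LuM1 cells on 1 of its 3 probes and was not well above background in Colon26 (6.11 ± 6.14) or NM11 cells (4.43 ± 4.44). The bounds were at least 5.67-fold over Colon26 and at least 7.65-fold over NM11. The other probes, which carry another accession of the gene, were not well above background on any array. *Ccl27b* is a near-identical copy and had no named probe, so the copies cannot be told apart. Of the spots around the detected probe, 8.24% were well above background on the LuM1 array alone, against 3.49% over the array.

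The 16 ligand genes that were not well above background on any array were *Cxcl9*, *Cxcl12*, *Cxcl14*, *Cxcl15*, *Cxcl17*, *Ccl1*, *Ccl6*, *Ccl11*, *Ccl12*, *Ccl19*, *Ccl21a*, *Ccl22*, *Ccl24*, *Ccl26*, *Ccl28* and *Xcl1*. Among them are all 3 eotaxins with a probe (*Ccl11*, *Ccl24* and *Ccl26*), which attract eosinophils, and both CCR7 ligands with a probe (*Ccl19* and *Ccl21a*), which guide T cells and dendritic cells to lymph nodes. Their signals did not exceed 22.4 in Colon26, 12.4 in LuM1 and 11.6 in NM11 cells. Of the 16, *Ccl11*, *Cxcl14* and *Xcl1* met the scanner software's looser call of significantly above background on all 3 arrays. Failing the stricter call does not show an mRNA to be absent.

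Many chemokine genes lie side by side in clusters, and the order of the genes was taken from the RefSeq annotation of GRCm38.p6. On chromosome 5, *Cxcl5*, *Ppbp*, *Pf4*, *Cxcl3*, *Cxcl15*, *Cxcl1* and *Cxcl2* follow each other, and of these 7 genes LuM1 had 6 well above background, NM11 had 4 and Colon26 had 1. *Cxcl15* was the exception in LuM1. Over all named genes the share well above background was 59.9% in LuM1, 59.1% in NM11 and 56.9% in Colon26 cells. The NM11 count of 4 of 7 is near that share. The flanking gene *Mthfd2l* gave 2243 in Colon26, 2188 in LuM1 and 1052 in NM11 cells, and the other flank, *Rassf6*, gave 5.72, 39.2 and 27.8, the first not well above background.

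On chromosome 11, *Ccl2*, *Ccl7*, *Ccl11*, *Ccl12*, *Ccl8* and *Ccl1* form a run of 6, of which the same 3, *Ccl2*, *Ccl7* and *Ccl8*, were well above background in each subline and none was in Colon26. Undetected genes lay among the detected ones in this run. The 3 of 6 in each subline do not exceed the shares over all named genes. A second run on chromosome 11 holds *Ccl5*, *Ccl9*, *Ccl6*, *Ccl3* and *Ccl4*. There *Ccl5* and *Ccl9*, which were highest in NM11 cells, adjoin *Ccl6*, which was not well above background, and *Ccl3*, which was highest in LuM1 cells. The gene after *Ccl4*, *Wfdc17*, gave 5.86 in Colon26, 186 in LuM1 and 70.5 in NM11 cells, the first not well above background.

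**Figure D3:**
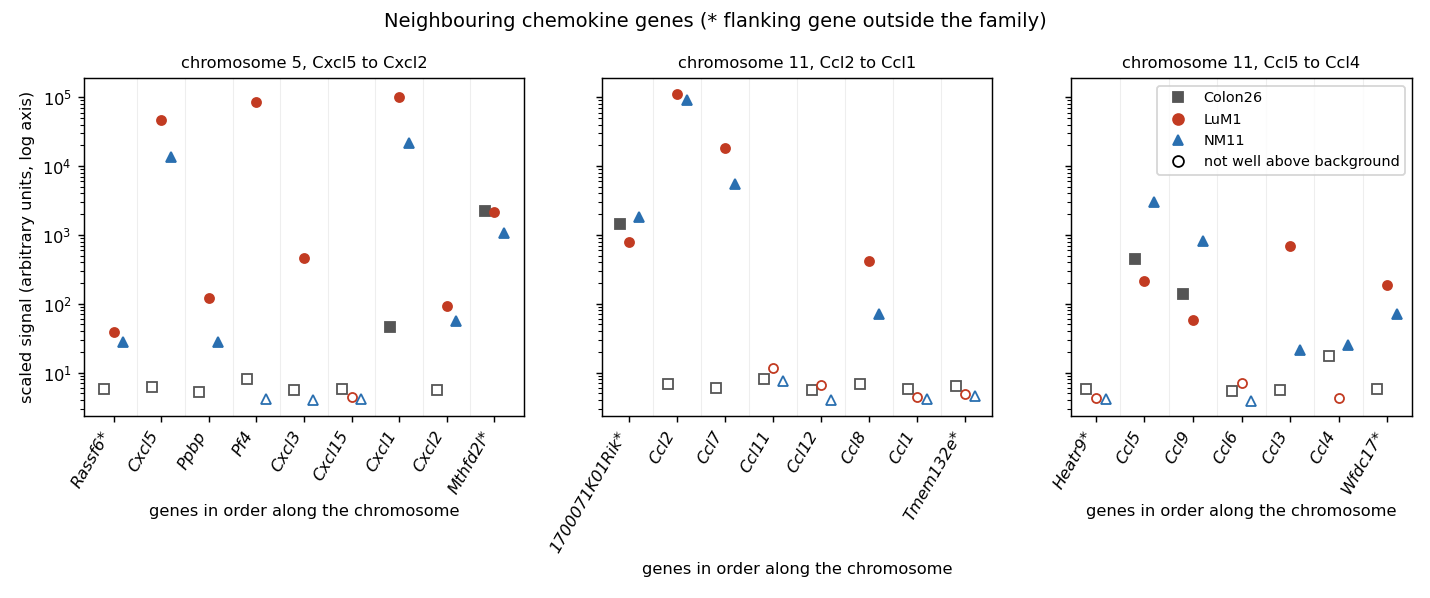
Scaled signal (arbitrary units, log axis) of neighbouring chemokine genes in their order along the chromosome, with flanking genes outside the family starred, squares for Colon26, circles for LuM1 and triangles for NM11, and open symbols for probes not well above background. In the left panel *Cxcl5*, *Cxcl1* and *Cxcl2* and in the middle panel *Ccl2*, *Ccl7* and *Ccl8* are higher in both sublines than in Colon26, *Pf4* and *Cxcl3* are high in LuM1 alone, and in the right panel *Ccl5* and *Ccl9* are highest in NM11 while *Ccl3* is highest in LuM1.

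A pair of chemokine genes falls outside the naming pattern, and both lie in the chromosome 5 run. *Pf4*, which encodes platelet factor 4 (CXCL4), gave 84791 ± 8479 in LuM1 cells and was not well above background in Colon26 (8.11 ± 5.74) or NM11 cells (4.15 ± 4.16). LuM1 was at least 3211-fold above Colon26 and at least 4333-fold above NM11. *Ppbp*, the gene of a platelet basic protein (CXCL7) that binds CXCR2, gave 5.28 ± 5.30, 121 ± 12.7 and 27.9 ± 4.80 in Colon26, LuM1 and NM11 cells. LuM1 was at least 4.57-fold above Colon26 and 4.33-fold above NM11. Beside the *Pf4* value stands that of *Cd68* in the same cells, whereas the leukocyte gene *Ptprc* was not significantly above background in LuM1 (4.53 ± 4.54).

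Most receptors for these ligands were not well above background. This held on every array for 11 of 17 signalling receptor genes (64.7%, against 35.3% of all named genes), among them *Cxcr2*, *Cxcr1*, *Cxcr4*, *Ccr1*, *Ccr7*, *Ccr9* and *Cx3cr1*. *Ccr8* was the only one well above background in all lines, at 59.8 ± 8.02 in Colon26, 143 ± 14.9 in LuM1 and 93.2 ± 10.1 in NM11 cells. *Ccr6*, the receptor of CCL20, was well above background in LuM1 cells alone, at 120.0 ± 12.7. Of the spots around it, 7.96% were well above background on the LuM1 array alone. *Ccl20* itself was not well above background in LuM1 or in Colon26 cells. *Ccr2* gave 23.7 ± 4.75 in NM11 cells, *Ccr10* 25.4 ± 5.43 in LuM1 cells and *Cxcr3* 40.1 ± 6.19 in LuM1 cells, and none of these was well above background in the other lines. *Cxcr6*, the receptor of CXCL16, gave 50.8 ± 7.19 in LuM1 and 28.4 ± 5.37 in NM11 cells. Its Colon26 signal, 29.1 ± 6.98, did not pass the well above background call but was no lower than that of NM11. A second *Cxcr6* probe was not well above background on any array. From 2-fold, *Ccr6* and *Ccr8* were above Colon26 in LuM1 cells, *Ccr6* and *Cxcr3* were above NM11 in LuM1 cells, no receptor was lower in either comparison, and none passed 2-fold for NM11 over Colon26. The receptors with a value numbered 4 for LuM1 over Colon26 and 6 for LuM1 over NM11, and the shares of all genes that were higher are those given for the ligands.

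Atypical receptors bind chemokines without coupling to G proteins and can remove them. Of 5 such genes, *Ackr3* was well above background in all lines, with 3507 ± 351 in Colon26 cells, 11943 ± 1194 in LuM1 cells and 2088 ± 209 in NM11 cells. LuM1 was 3.41-fold above Colon26 and 5.72-fold above NM11. *Ccrl2* was detected in NM11 cells alone, at 38.5 ± 5.59, against 26.2 ± 6.10 in Colon26 and 7.01 ± 4.35 in LuM1 cells. NM11 was at least 1.46-fold above Colon26 and at least 1.91-fold above LuM1, both bounds under 2-fold. *Ackr1*, *Ackr2* and *Ackr4* were detected on no array. The metalloproteases that shed CX3CL1 and CXCL16 were well above background in all lines. *Adam10* gave 1454 ± 145, 2335 ± 234 and 2245 ± 225 in Colon26, LuM1 and NM11 cells, and *Adam17* gave 532 ± 53.6, 838 ± 84.0 and 523 ± 52.5, each within 2-fold in every pair of lines. A second *Adam17* probe gave 150 ± 16.2, 102 ± 11.2 and 63.6 ± 7.73 and put Colon26 2.36-fold above NM11, so the probes disagree. Around these *Adam17* spots 14.8% and 23.7% of the spots were well above background on the Colon26 array alone. *Dpp4*, a protease that trims several chemokines, was not well above background on any array.

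**Figure D4:**
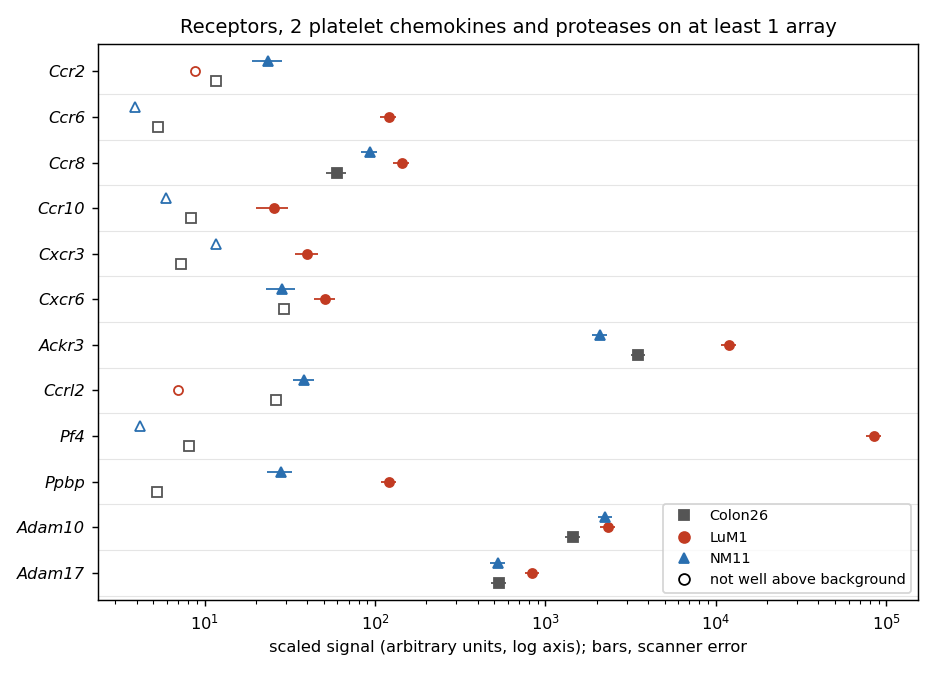
Scaled signal (arbitrary units, log axis) of the receptor, platelet chemokine and protease genes detected well above background on 1 array or more, with squares for Colon26, circles for LuM1 and triangles for NM11, open symbols for probes not well above background, and bars for the scanner error. *Pf4* is far above background in LuM1 alone, and *Ackr3* is highest in LuM1.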

How the data were processed

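The authors cultured each line, labelled its RNA with Cy3 using a low-input kit, and hybridized it to SurePrint G3 Mouse 60K v2 arrays. They deposited intensity values from Feature Extraction 11.5.1.1, which subtracts the background and detrends each array without scaling between arrays, and flags of 0 or 1 per spot (scores such as well above background). Each column of their processed table equals this intensity multiplied by a constant (0.654 on Colon26, 0.829 on LuM1, 0.706 on NM11). A normalization is not given in the sources used here.

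Control spots and outlier spots (137, 74 and 99) were left out, spots of a probe were averaged, and the arrays were scaled to the geometric mean of their 75th percentiles over non-control spots (581 on Colon26, 625 on LuM1, 552 on NM11). Probes were named through RefSeq accessions of GRCm38.p6, 32989 of 56599 (58.3%). The arrays were designed on another assembly, so no probe positions are given, and the promoter windows and the order of genes are those of GRCm38.p6. The members, the gene lists and the rule for naming genes (every ligand detected on at least 1 array with its values, the others by name) were chosen with earlier results of these data known. The ratios were compared under the alternatives given in the closing section, and the calls were tested on simulated data. The simulated arrays were all built from the Colon26 array with added noise, and only genes bright in Colon26 were changed. The simulation therefore did not cover ligands dim in Colon26, whose ratios are bounds, or variation between cultures. With 1 array per line, the number of arrays limits the precision. One receptor gene is not reported here.

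Scripts ran in Python 3.11.15 (pandas 2.3.3, numpy 2.4.6, scipy 1.17.1, and for figures matplotlib 3.10.9), with normexp from limma 3.58.1 in R 4.3.3.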

Additional observations from a re-analysis of the deposited data

How the results depend on the processing

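The 2-fold counts of ligand genes were recomputed unscaled, scaled to measured probes' median or to *Hprt*, after quantile normalization, after normexp background correction (offset 50, run on the median brightness of each spot), in the deposited processed values, under a looser detection rule (significantly above background), with dim probes unfiltered, with a gene's probes averaged, and from 4-fold. Leaving out clustered spots was added after seeing the data. The counts of higher ligands stayed within 1.5 times of those reported under every setting. The 12 higher in NM11 than in Colon26 cells became 10 with *Hprt*, 9 with normexp and 8 at 4-fold. They became 14 with the looser rule or with no filter. Of all genes, 8.34% were higher as reported. That share was 5.06% with *Hprt*, 5.77% with normexp, 3.39% at 4-fold, 10.3% with the looser rule and 7.90% with no filter. The 3 ligands lower in LuM1 than in Colon26 cells became 1 with normexp, 1 in the authors' values and 1 at 4-fold. They became 6 with the looser rule (of 25 with a value) or with no filter (of 35). Of all genes, 11.8% were lower as reported. That share was 8.98% with normexp, 6.09% in the authors' values, 3.79% at 4-fold, 15.4% with the looser rule and 11.9% with no filter. Under the looser rule 15 ligands were detected in Colon26, 24 in LuM1 and 22 in NM11 cells. The share of all named genes detected under that rule was not computed, so these counts have no background beside them. Without clustered spots the 1 ligand lower in NM11 than in Colon26 cells became 0, since the *Cxcl13* spot is among those left out. Normexp lowered the large ratios over Colon26, for *Cxcl5* in LuM1 from 10.81 to 9.10 and for *Ccl7* in LuM1 from 9.44 to 7.73 (log2). With dim probes unfiltered the median of NM11 over Colon26 was 0.53, over all 35 ligands, in place of 2.65 over the 6 measured. Over the 6 measured ligands, the LuM1 to Colon26 median of -0.31 (log2) turned to 0.14 in the authors' values. It was 0.53 with the looser rule, which counts more ligands as measured, and 0.23 with no filter, which takes all 35. These 2 medians thus cover other sets of ligands. Of 496 single log2 ratios under the alternatives, 332 moved by less than the scanner error, 164 moved by more and 0 turned a call of at least 2-fold to the other direction.

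Relative to the 75th percentile, the authors' values shifted the median of all genes by 0.45 for LuM1 over Colon26 and 0.41 for LuM1 over NM11 (log2), *Hprt* by -0.49 for NM11 over Colon26 and 0.59 for LuM1 over NM11, and no scaling by 0.11 for LuM1 over Colon26 and 0.18 for LuM1 over NM11. *Hprt* itself gave 11101 in Colon26, 10351 in LuM1 and 15573 in NM11 cells. Signal over background limits the dim ligands, for which ratios are bounds. No paired analysis was possible because each line has 1 array and no result comes from a test.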
